A study of Mus musculus with 12 samples.

Results

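A set of 9 cytokine and chemokine genes was followed through hippocampal cells of mice given cisplatin or buffer, with or without 40 Hz sensory stimulation: Il1a, Il1b, Tnf, Ccl2, Ccl3, Ccl4, Ccl7, Ccl12 and Cxcl2. They were chosen by name, and all 9 were among the 32285 genes of the count matrix. Cisplatin is a platinum drug that crosslinks DNA, and the stimulation paired light flicker with sound pulses, as is done to drive gamma rhythms. The Cisplatin stim group received the drug and 40 Hz stimulation for 1 h per day over 21 days, the Cisplatin nonstim group the drug alone, the PBS stim group buffer injections and the same stimulation, and the PBS nonstim group buffer alone. All mice were 9-week-old C57/BL6J females with no engineered allele, and hippocampi were taken on day 22. Each group had 3 libraries. Replicate 1 was made of both hippocampi (2) of 1 animal, while replicates 2 and 3 each pooled the 4 hippocampi of 2 animals. The 4 replicate 1 libraries have names that begin with 20 and form the first batch below, and the other 8, whose names begin with 21, form the second.

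Interleukin 1 and tumour necrosis factor (TNF) are the classical proinflammatory cytokines, and in the healthy and injured brain microglia are a main source of them. Il1a and Il1b encode the 2 agonists of the type 1 interleukin 1 receptor, Il1b as a precursor that inflammasome proteases cut, while Tnf encodes a membrane-bound trimer that is shed to act on 2 receptors. The chemokines steer leukocytes: Ccl2, Ccl7 and Ccl12 act on monocytes through Ccr2, Ccl3 and Ccl4 attract macrophages and T cells, and Cxcl2 draws neutrophils through Cxcr2. Transcription of most of these genes is switched on within minutes by NF-kB and AP-1, and their mRNAs are short-lived, so enzymatic dissociation of tissue is known to induce them in microglia.

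The genes lie in 5 places on 4 chromosomes in the mouse genome (GRCm38, GENCODE M21). Il1b (chromosome 2, 129364570 to 129371139) and Il1a (chromosome 2, 129299610 to 129309972) are transcribed from the minus strand, with starts 61.2 kb apart. Ccl2 (82035571 to 82037453), Ccl7 (82045712 to 82047525) and Ccl12 (82101845 to 82103400) follow each other on the plus strand of chromosome 11. Farther along chromosome 11, Ccl3 (83647844 to 83649355, minus strand) and Ccl4 (83662584 to 83664683, plus strand) are transcribed away from each other, with starts 13.2 kb apart. Tnf is on chromosome 17 (35199381 to 35202007, minus strand) and Cxcl2 on chromosome 5 (90903871 to 90905938, plus strand). Of the 31-base words in annotated transcripts, Cxcl2 shared 7.59% with Cxcl3, its neighbour in the CXC family, so its counts carry that uncertainty. The other 8 genes shared none with another gene.

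Promoter windows from RefSeq (GRCm38.p6) were held for 6 of the 9 genes, and those of Cxcl2, Tnf and Il1b are shown because these are the 3 genes whose microglial level differed between cisplatin and PBS libraries below. Each is the 250 bases before the RefSeq transcription start, 5′ to 3′ on the gene's strand, at chr5:90903649-90903898 (plus), chr17:35202008-35202257 (minus) and chr2:129371140-129371389 (minus). For Cxcl2 this start lies downstream of the GENCODE start given above (90903871), so the window runs past that one. Positions below count from the RefSeq start. Capitals mark matches to the NF-kB consensus decamer (searched on both strands) or to TATAAA (gene strand).
Cxcl2: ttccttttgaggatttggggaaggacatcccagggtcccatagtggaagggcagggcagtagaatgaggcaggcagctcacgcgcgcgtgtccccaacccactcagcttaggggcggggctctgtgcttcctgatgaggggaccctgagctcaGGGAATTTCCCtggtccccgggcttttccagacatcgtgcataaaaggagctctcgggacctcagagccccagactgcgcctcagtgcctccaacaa
Tnf: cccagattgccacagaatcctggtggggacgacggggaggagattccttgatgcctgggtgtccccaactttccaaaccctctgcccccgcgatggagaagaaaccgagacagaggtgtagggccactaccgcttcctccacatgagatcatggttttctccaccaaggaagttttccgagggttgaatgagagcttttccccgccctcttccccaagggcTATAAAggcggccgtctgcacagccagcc
Il1b: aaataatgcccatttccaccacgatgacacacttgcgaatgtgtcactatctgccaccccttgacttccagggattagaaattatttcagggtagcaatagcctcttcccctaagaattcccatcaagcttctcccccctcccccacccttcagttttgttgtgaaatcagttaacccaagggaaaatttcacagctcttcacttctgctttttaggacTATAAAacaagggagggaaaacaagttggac
Cxcl2 held the decamer at positions -97 to -88 and, overlapping it by all but 1 base on the opposite strand, at -96 to -87, and 3.9% of all 32851 promoter windows of this length held at least 1 match. Neither Tnf nor Il1b held it in these 250 bases. A TATAAA box was present in Tnf, Il1b, Il1a and Ccl12, against 7.59% of all windows. Il1a held TGANTCA (both strands, 6.75% of all windows), and TGACGTCA (both strands, 1.55%) was in none of the 6.

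The 12 libraries held 19834 cells, 611 to 2772 each, of which the authors typed 4530 as microglia (117 to 809 per library). Unique molecular identifiers (UMIs) were counted at transcript 3′ ends, so 1 mRNA gives about the same count whatever its length, and levels are given as CPM, the UMIs of a gene in millionths of all UMIs of the cells summed, with no length correction. Lower levels could mean fewer microglia of a state or less mRNA per cell, which cannot be told apart in summed counts. The microglial markers fixed for the check (9 genes, among them P2ry12, Tmem119 and Cx3cr1) were all detected in both microglial clusters, with a summed level of 23879 CPM in cluster 0 (3000 cells) and 29287 CPM in cluster 5 (1530 cells). The libraries of the first batch stood apart: the median microglial cell had 5.97 to 15.3% mitochondrial UMIs there and 1.55 to 3.49% in the second batch, and Cisplatin stim replicate 1 had the shallowest microglia (a median of 1849 UMIs). The share of ribosomal RNA-like transcripts was 1.87 to 3.65% for second-batch PBS libraries (4) and 0.34 to 0.782% for the other 8. Of all cells, 112 carried a barcode that also occurred in another library. Each library came from different animals, and p-values measure the spread between these libraries.

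Of the 9 genes, 6 had at least 79.0% of their UMIs in microglia, and 3 had a larger part in another immune cluster. Microglia held 99.0% of all Il1a UMIs, 96.9% of Tnf, 96.9% of Ccl4, 94.8% of Ccl3, 81.6% of Il1b and 79.0% of Ccl12. Ccl2 had 64.7% of its UMIs in microglia and 34.6% in cluster 15, which the authors type as immune. Cxcl2 was split between them, with 44.4% in microglia and 54.1% in cluster 15. For Ccl7 the data go against the label of a microglial gene: 3.09% of its 2914 UMIs were in microglia and 96.5% in the 240 cells of cluster 15. That cluster also held 17.53% of Il1b and 17.75% of Ccl12 UMIs, with 240 cells against 4530 microglia. Median levels of Il1b and Ccl12 over libraries were higher there, at 1041 and 1130 CPM, against 196 and 178 CPM in microglia.

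**Figure D1:**
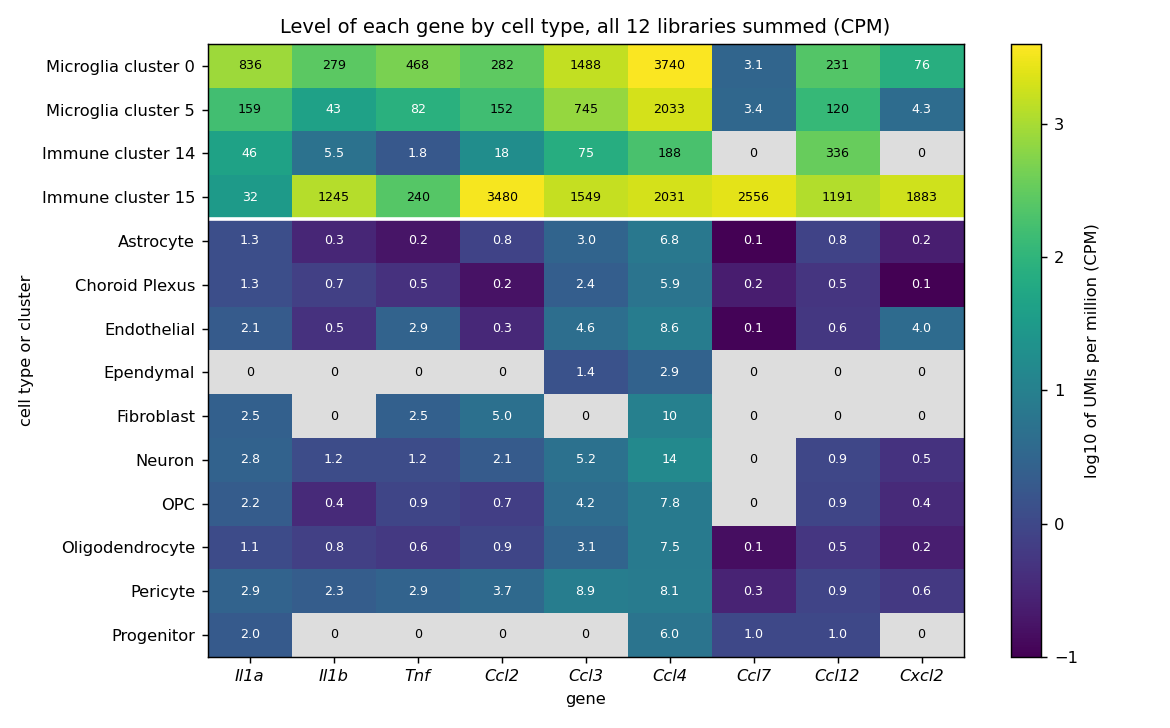
Level of each gene (columns) in each cluster of microglia and immune cells and each other cell type (rows), as CPM over all 12 libraries summed. Color is log10 CPM, and grey marks 0 UMIs. Ccl7 stood at 2556 CPM in cluster 15 and at 3.1 and 3.4 CPM in microglial clusters 0 and 5.

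Within microglia, Ccl4 was the most abundant of the 9 mRNAs and Ccl7 the least. Over the 12 libraries the median level was 3640 CPM for Ccl4 (1433 to 5542) and 1314 CPM for Ccl3 (688 to 3094). Il1a followed at a median of 685 CPM (437 to 1130), and Tnf at 325 CPM (245 to 1521). Ccl2 (median 224 CPM, 136 to 412), Il1b (196 CPM, 91.4 to 439.8) and Ccl12 (178 CPM, 127 to 858) had overlapping ranges and could not be ordered beyond the spread between libraries. Cxcl2 stood at a median of 48.6 CPM (21.6 to 353) and Ccl7 at 1.95 CPM (0 to 9.27), with 2 libraries at 0. Ranges of Ccl4 and Ccl3 overlapped, as did those of Ccl3, Il1a and Tnf.

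Many microglia carried at least 1 UMI of a member when each cell was thinned to 2000 UMIs, a depth that 3814 of the 4530 reached. The share was 54.9% for Ccl4, 51.1% for Il1a, 40.7% for Ccl3, 30.8% for Tnf, 21.9% for Ccl12, 17.2% for Ccl2, 2.83% for Cxcl2 and 0.393% for Ccl7. Il1b was found in 496 of the 3814 cells. Oligodendrocytes, which should lack these genes, were taken as the background at the same depth: 1.44% for Ccl4, 0.567% for Ccl3 and 0.26% or less for the other 7 genes. Free RNA itself was not measured. Median depth before thinning was 6122.5 UMIs in microglia and 7157 in oligodendrocytes, and without thinning 4.66% of oligodendrocytes had a Ccl4 UMI. Ccl7 in microglia was far below its level in cluster 15 but above the 0 of 4231 thinned oligodendrocytes. At least 3 of the 9 genes were found in 42.6% of thinned microglia, and none in 12.7%.

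For each gene, the 381 thinned cells with the most UMIs of it held 92.5% of Il1b UMIs, 86.1% of Ccl2, 71.0% of Ccl12, 60.8% of Tnf, 59.1% of Ccl3, 50.1% of Ccl4 and 44.4% of Il1a UMIs. This share is partly set by the number of cells with a UMI, 496 for Il1b and 108 for Cxcl2, whose UMIs all fell in those 381 cells. A single cell reached 53 thinned UMIs of Ccl3. Cxcl2 was present in 108 of 3814 thinned microglia, with up to 13 UMIs in a cell.

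Ccl3 and Ccl4, a pair of neighbouring genes, were detected in the same cells. Of thinned microglia with Ccl3, 80.3% had Ccl4, which was present in 54.9% of all of them, and 59.6% of those with Ccl4 had Ccl3. The correlation of their thinned counts was r = 0.67 over the 3814 cells, which share libraries and depth. The other 35 pairs ranged from 0.00 to 0.24, with Il1a and Il1b highest: 74.6% of microglia with Il1b had Il1a. Correlations that weak in sparse counts are not a finding. Over the 12 libraries, Ccl3 and Ccl4 levels had r = 0.89 as a description, and the batch difference enters that value.

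Both microglial clusters expressed the genes, at different levels. In these clustered cells the levels are a description, since the genes were part of what was clustered. Il1a had a median over 12 libraries of 833 CPM in cluster 0 and 165 CPM in cluster 5, Tnf 383 and 117 CPM, Il1b 244 and 45.1 CPM, and Cxcl2 59.2 and 4.5 CPM. Cluster 0 was the higher one in all 12 libraries for these 4 genes. The chemokines Ccl4 (3984 and 2248 CPM) and Ccl3 (1388 and 757 CPM) differed less, with cluster 0 higher in 11 of 12 libraries. Cluster 5 cells were shallower, with a median of 4058 UMIs against 7046, and made up 46.2 to 49.2% of microglia in the first batch and 21.0 to 32.9% in the second.

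**Figure D2:**
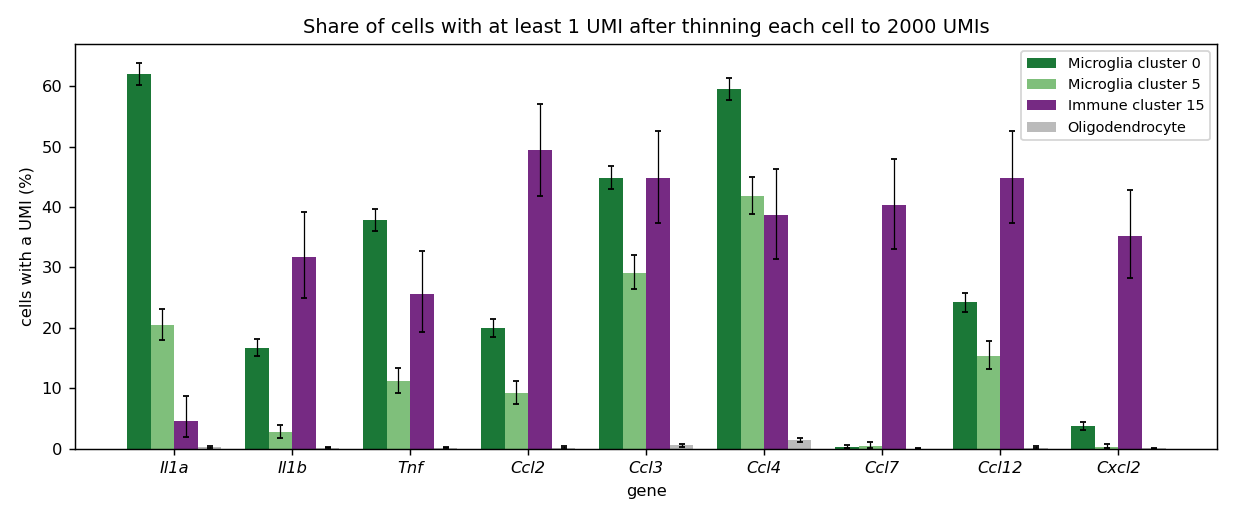
Share of cells (percent) with at least 1 UMI of each gene after thinning to 2000 UMIs per cell, in microglial clusters 0 and 5, immune cluster 15 and oligodendrocytes as background. Bars start at 0 and lines are exact 95% binomial intervals, which cover counting error only. Il1a was in 62.0% of cluster 0 cells and Ccl7 in microglia stayed under 1%.

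Cluster 15 held border macrophage, monocyte and neutrophil markers together, and within it the monocyte-attracting chemokines were almost wholly in cells led by macrophage markers. Mrc1, Cd163, Lyve1, Pf4, Ms4a7 and F13a1 (border macrophage markers) summed to 7557 CPM there and the neutrophil genes S100a8, S100a9, Ngp, Retnlg and Camp to 14849 CPM, while microglial markers, led by C1qa, which border macrophages share, summed to 8126 CPM. Cells were set in the class whose marker list had the most UMIs, with at least 3 of them, a split chosen after seeing the data: 200 of 240 cells were led by border macrophage markers, 17 by monocyte markers and 9 by neutrophil markers, and 12 cells lay near the dividing line. The 200 cells held all 3827 Ccl2 and all 2811 Ccl7 UMIs of the cluster, 99.8% of Ccl12 and 99.6% of Cxcl2. Their levels were 4298 CPM for Ccl2, 3157 CPM for Ccl7, 2317 CPM for Cxcl2 and 1469 CPM for Ccl12. Il1b was found in all 3 classes, at 1212 CPM in cells led by macrophage markers, 1079 CPM in those led by monocyte markers and 2622 CPM in the 9 led by neutrophil markers. Ccl4 stood at 2105 CPM in cells led by macrophage markers and 2428 CPM in those led by monocyte markers, Ccl3 at 1827 and 513 CPM, and Tnf at 282 and 98.9 CPM (37.5 CPM in cells led by neutrophil markers). Il1a, at 31.8 CPM over the cluster, was the one member with a far lower level there than in microglia.

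Levels in cluster 15 varied widely between the 9 libraries with at least 10 of its cells. Ccl2 ranged from 820.1 to 10584 CPM (median 2403), Ccl7 from 269.8 to 5937 CPM (median 2736) and Cxcl2 from 0 to 3609 CPM (median 1922). The 18 thinned cells with the most UMIs held 53.9% of Ccl2 and 60.8% of Ccl7 UMIs. Cluster 14, 309 shallow cells also typed as immune, carried all 9 microglial markers (23354 CPM), but Tnf at 1.8 CPM, Il1b at 5.5 CPM and no UMI of Cxcl2 or Ccl7. Ccl12 was its exception, at 336 CPM, with libraries from 14.8 to 1537 CPM.

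Outside microglia and the immune clusters the 9 genes were at low levels, and the level of free RNA was not measured. Non-immune types together held 0.45 to 1.44% of the UMIs of a gene, and Ccl4 stood at 2.85 to 14.4 CPM among them. Endothelium had Cxcl2 at 4.04 CPM (exact Poisson 95% interval 2.83 to 5.59, 36 UMIs in 9 cells) and Tnf at 2.92 CPM (1.91 to 4.28, 26 UMIs in 15 cells). Oligodendrocytes had less in summed counts, 0.24 CPM of Cxcl2 (0.1 to 0.47) and 0.57 CPM of Tnf (0.34 to 0.89). Over the 12 libraries, endothelial Cxcl2 ranged from 0 to 27.4 CPM (median 1.36, 5 libraries at 0) and endothelial Tnf from 0 to 9.1 CPM (6 at 0). In oligodendrocytes the ranges were 0 to 1.16 CPM for Cxcl2 and 0 to 1.78 CPM for Tnf. Pericytes had Ccl2 at 3.74 CPM, from 13 UMIs in 6 of 379 cells, and 8 of 11 libraries had none. The Poisson intervals cover counting error only, and cells that carry RNA of a second cell were not told apart.

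The comparison of cisplatin with PBS libraries asks what the drug leaves in microglia on day 22, here averaged over stimulation. Tnf, Il1b and Cxcl2 rose, while the remaining 5 tested members did not pass the test. Ccl7 was too rare in microglia to be tested. Of 8 tested members, 3 were called (edgeR quasi-likelihood test, adjusted p under 0.05), all higher, where 14.8% of all 9903 tested genes were called and 8.2% were called higher.

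Tnf, the TNF precursor, had 1521, 512 and 339 CPM in the Cisplatin stim libraries (replicates 1, 2 and 3), 803, 432 and 306 in Cisplatin nonstim, 644, 268 and 250.4 in PBS stim and 312, 245 and 270.1 in PBS nonstim. Within each batch every cisplatin library was above every PBS library: 306 to 512 against 245 to 270.1 CPM in the second batch, and 803 to 1521 against 312 to 644 CPM in the first. In the second batch 20.6% of 10497 genes separated the 4 cisplatin from the 4 PBS libraries, in either direction, and in the first 38.3% separated the 2 from the 2. Its log2 fold change was 0.83 ± 0.16 (SE; edgeR adjusted p = 0.00109). The share of thinned microglia with a Tnf UMI was 35.3 to 46.4% in the cisplatin libraries of the second batch and 21.9 to 25.9% in the PBS libraries.

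Cxcl2, the neutrophil chemokine, had 353, 54.4 and 85.3 CPM in the Cisplatin stim libraries, 167, 37.3 and 35.8 in Cisplatin nonstim, 108, 32.8 and 42.8 in PBS stim and 114, 21.6 and 35.4 in PBS nonstim. All 4 libraries of the first batch were above all 8 of the second. Cisplatin libraries had 167 to 353 against 108 to 114 CPM in the first batch. Il1b, Tnf, Ccl3, Ccl4 and Ccl12 were also higher there without overlap, where 38.3% of 10497 genes separated the libraries in either direction. Ccl7 had 2 and 7 UMIs in the cisplatin libraries and 0 in the PBS libraries there, too few to separate them. In the second batch Cxcl2 overlapped between cisplatin and PBS libraries (35.8 to 85.3 against 21.6 to 42.8 CPM). The log2 fold change of Cxcl2 was 0.83 ± 0.13 (SE; edgeR adjusted p = 0.000153). Only 7 to 25 microglia per library held a Cxcl2 UMI, so few cells set its level here and in the comparisons below.

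Il1b, the inflammasome-processed cytokine, had 389.6, 193 and 174 CPM in the Cisplatin stim libraries, 439.8, 369 and 199.5 in Cisplatin nonstim, 296, 144 and 91.4 in PBS stim and 224, 192 and 181 in PBS nonstim. Cisplatin libraries of the second batch (174 to 369 CPM) overlapped the PBS libraries (91.4 to 192 CPM). Its log2 fold change was 0.63 ± 0.15 (SE; edgeR adjusted p = 0.00804), and by DESeq2 it did not pass (adjusted p = 0.0835). Its relative Il1a, which shares the receptor, had a log2 fold change of 0.11 ± 0.11 (SE; edgeR adjusted p = 0.548), with 507 to 1130 CPM in cisplatin and 437 to 1113 CPM in PBS libraries.

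Ccl4, Ccl2 and Ccl3 did not pass the test over both batches. Ccl4 had 5542, 2332 and 2645 CPM in the Cisplatin stim libraries, 4936, 2556 and 1433 in Cisplatin nonstim, 3959.6, 3812 and 2891 in PBS stim and 4164, 3524 and 3755 in PBS nonstim. In the first batch both cisplatin libraries were above both PBS libraries (4936 to 5542 against 3959.6 to 4164 CPM), and in the second all 4 were below (1433 to 2645 against 2891 to 3812 CPM). Its log2 fold change over both batches was -0.32 ± 0.15 (SE; edgeR adjusted p = 0.174), and in the second batch alone -0.67 (edgeR adjusted p = 0.00096). Ccl2 had a log2 fold change of -0.49 ± 0.18 (SE; edgeR adjusted p = 0.0735) over both batches and of -0.69 (edgeR adjusted p = 0.000661) in the second alone. Both were also called, lower with cisplatin, without Cisplatin nonstim replicate 1 or without PBS nonstim replicate 1, and Ccl2 without PBS stim replicate 3. Whether the effect of cisplatin differs between batches was not tested, and the batches also differ in the number of animals per library. Ccl3 stood near 0 at 0.05 ± 0.15 (SE; edgeR adjusted p = 0.868), and Ccl12 at 0.64 ± 0.23 (SE; edgeR adjusted p = 0.0691), where Cisplatin stim replicate 1 alone reached 858 CPM against 127 to 267 in the other 11 libraries. Without Cisplatin stim replicate 3 Ccl12 was called higher. The share of all genes called in the second batch alone or with 1 library left out is not given here.

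**Figure D3:**
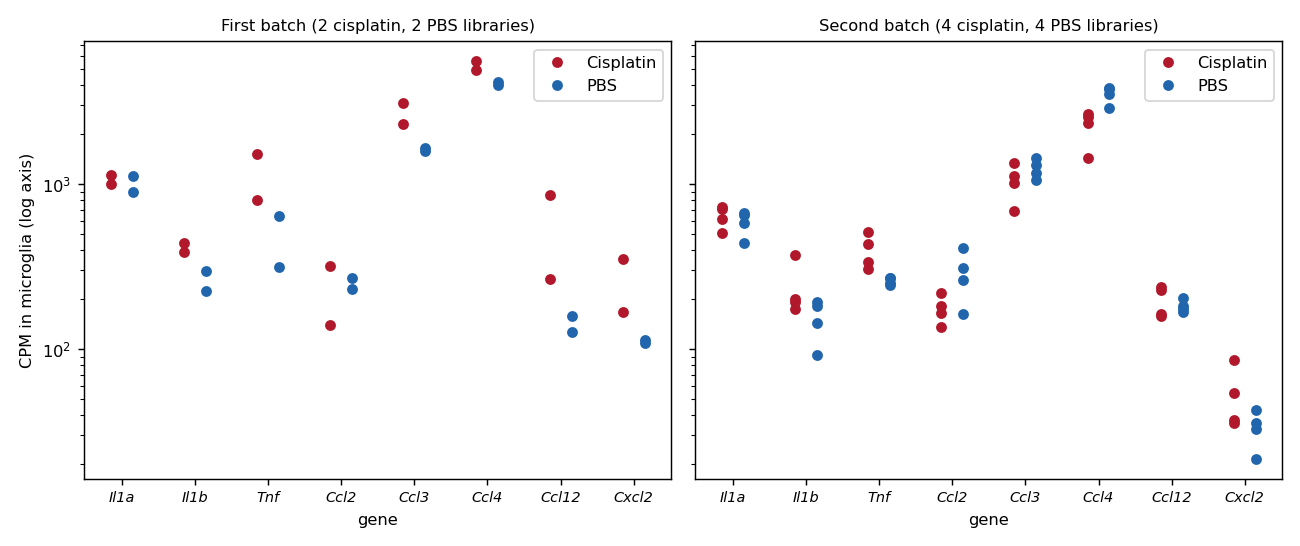
Microglial level (CPM, log axis) of the 8 tested genes in cisplatin and PBS libraries, 1 point per library, first batch left and second batch right. Ccl4 separates the drug groups in both batches, higher with cisplatin in the first and lower in the second, and Tnf is higher with cisplatin in both.

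These calls stand beside other differences between the libraries. Their part in the result was not tested, and refits are given as values only. Immediate early genes, fast-responding genes that dissociation also induces, summed to 26103, 32135 and 32105 CPM in Cisplatin stim microglia and to 33434 to 36334 CPM in the other 9 libraries. With that level as a covariate, an alternative added after seeing the data, no member was called (log2 0.64 for Cxcl2, 0.32 for Tnf and 0.35 for Il1b; edgeR adjusted p = 0.0662, 0.399 and 0.466). The covariate sets the Cisplatin stim libraries apart, and of its 19 genes 3 were themselves called higher and 5 lower with cisplatin. Cisplatin nonstim libraries had 34553 to 35760.5 CPM, inside the range of the PBS libraries (33434 to 36334 CPM). This refit therefore cannot separate the covariate from the Cisplatin stim group, and why the calls were lost was not tested. With no batch term none was called either (edgeR adjusted p = 0.113 for Tnf, 0.187 for Il1b and 0.263 for Cxcl2). The ribosomal RNA-like share, which is high in second-batch PBS libraries only, left Tnf and Cxcl2 called as a covariate but not Il1b (0.83, edgeR adjusted p = 0.0889), added Ccl3 and Ccl12, and turned Ccl2 (0.18) and Ccl4 (0.28) to positive values that did not pass. Microglial markers summed to 20923 to 26849 CPM in cisplatin and 24781 to 25926 CPM in PBS libraries, while neutrophil, monocyte, border macrophage and T and NK cell markers each summed to at most 9.80 CPM in microglia of any library. Choroid plexus markers, led by Ttr, summed to 139 to 1604 CPM in microglia of cisplatin libraries and 2.54 to 516 CPM in those of PBS libraries, and their part in the result was not tested.

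Within the microglial clusters, Tnf rose in both. In cluster 0 the 3 genes called over all microglia were called again (Tnf 0.78 ± 0.17, Cxcl2 0.78 ± 0.14 and Il1b 0.58 ± 0.16, log2 ± SE; edgeR adjusted p = 0.00455, 0.000997 and 0.0172), where 12.1% of 9522 genes were. In cluster 5 Tnf alone of 7 tested members was called (0.89 ± 0.18, SE; edgeR adjusted p = 0.0026), where 4.73% of 6136 genes were. Il1b there had a log2 fold change of 0.66 ± 0.30 (SE; edgeR adjusted p = 0.219), and Cxcl2 was too rare to be tested.

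Without stimulation, no member passed the test between Cisplatin nonstim and PBS nonstim microglia, where 3.59% of 9903 genes were called. By edgeR 5 of 8 tested members had an unadjusted p under 0.05, as did 18.8% of all genes, DESeq2 called none and limma-voom called Tnf. Il1b had a log2 fold change of 0.71 ± 0.21 (SE; edgeR adjusted p = 0.0568) and passed with the replicate number as a block (0.66, edgeR adjusted p = 0.0473). Tnf stood at 0.74 ± 0.22 (SE; edgeR adjusted p = 0.0611) and Cxcl2 at 0.48 ± 0.18 (SE; edgeR adjusted p = 0.141). Ccl2 stood at -0.68 ± 0.25 (SE; edgeR adjusted p = 0.136) and Ccl4 at -0.50 ± 0.22 (SE; edgeR adjusted p = 0.212). Second-batch libraries taken alone called Ccl2, Ccl3 and Ccl4, all lower with cisplatin, and the share of all genes called there is not given here. In the first batch the single Cisplatin nonstim library was above the PBS one for all 3 (log2 differences of 0.47, 0.48 and 0.24). Leaving out 1 library called 0 to 2 members: Il1b and Tnf without Cisplatin stim replicate 1, Tnf without Cisplatin stim replicate 3, Ccl2 and Ccl4 without Cisplatin nonstim replicate 1, Il1b without Cisplatin nonstim replicate 3, PBS stim replicate 1 or PBS stim replicate 3, and Ccl2 without PBS nonstim replicate 1. The share of all genes called in these refits is not given either.

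With stimulation, Tnf and Cxcl2 were higher in Cisplatin stim than in PBS stim microglia. They were 2 of 8 tested members, where 5.24% of 9903 genes were called. Cxcl2 had a log2 fold change of 1.19 ± 0.18 (SE; edgeR adjusted p = 0.000492) and Tnf of 0.92 ± 0.22 (SE; edgeR adjusted p = 0.0159). Tnf depended on single libraries: without Cisplatin stim replicate 1 it was 0.56 (edgeR adjusted p = 0.142), the call was also lost without Cisplatin stim replicate 2, PBS stim replicate 2 or PBS stim replicate 3, and DESeq2 gave an adjusted p of 0.111. Both calls were lost with no batch term (Cxcl2 1.49 and Tnf 1.05, edgeR adjusted p = 0.422 and 0.359) and with the immediate early gene covariate (Cxcl2 0.83 and Tnf -0.028, edgeR adjusted p = 0.335 and 0.998). Ccl12 stood at 0.93 ± 0.34 (SE; edgeR adjusted p = 0.117) and at -0.026 in the second batch alone, and it was called without Cisplatin stim replicate 3.

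**Figure D4:**
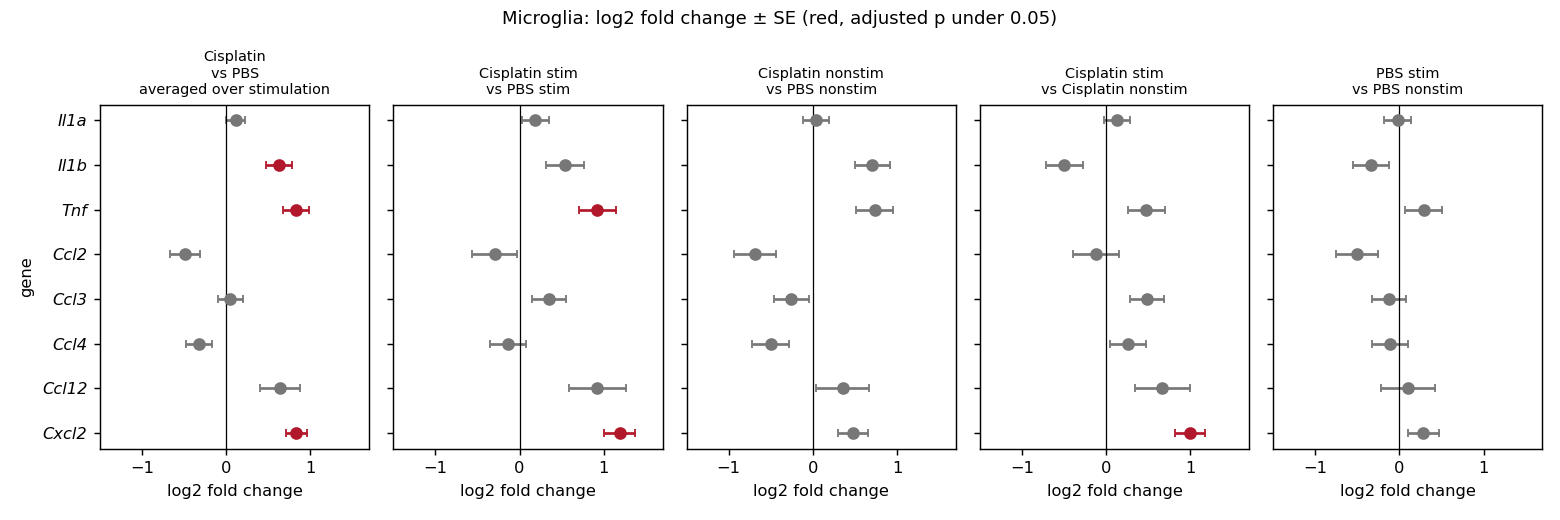
Log2 fold change ± SE of the 8 tested genes in microglia in 5 comparisons (edgeR, all 12 libraries). Red points passed an adjusted p under 0.05: Il1b, Tnf and Cxcl2 for cisplatin averaged over stimulation, Tnf and Cxcl2 for Cisplatin stim against PBS stim, and Cxcl2 for Cisplatin stim against Cisplatin nonstim.

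Stimulation was then compared within each drug arm. In cisplatin mice, Cxcl2 was higher in Cisplatin stim than in Cisplatin nonstim microglia, by 1.00 ± 0.18 on the log2 scale (SE; edgeR adjusted p = 0.0182). It was the only one of 8 tested members called, where 0.131% of 9903 genes were. Its UMIs came from 13, 10 and 12 cells of the Cisplatin stim libraries (replicates 1, 2 and 3) and 25, 18 and 7 of Cisplatin nonstim. Stimulated libraries had 353 against 167 CPM in the first batch, and 54.4 and 85.3 against 37.3 and 35.8 CPM in the second, where 35.7% of 10497 genes separated the 2 stimulated from the 2 unstimulated cisplatin libraries, in either direction; the first batch has 1 library of each. The direction held with each library left out (0.83 to 1.15), but the call was lost without Cisplatin stim replicate 1 or 3 or without Cisplatin nonstim replicate 1 or 2, in the second batch alone (0.96, edgeR adjusted p = 0.0745), with no batch term (0.89, edgeR adjusted p = 1) and with the immediate early gene covariate (0.61, edgeR adjusted p = 0.999). Tnf (0.48 ± 0.22), Ccl3 (0.49 ± 0.20) and Il1b (-0.49 ± 0.22) had edgeR adjusted p of 0.685, 0.627 and 0.658 (log2 ± SE).

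In PBS mice no member was called between PBS stim and PBS nonstim microglia, nor was any of the 9903 genes (0.0%). Unadjusted, 0 of the 8 members and 267 genes (2.7%) had an edgeR p under 0.05, and neither DESeq2 nor limma-voom called a member. Without PBS nonstim replicate 1, Ccl7 became testable and was called. Values lay between -0.50 ± 0.25 for Ccl2 and 0.29 ± 0.22 for Tnf (log2 ± SE). The interaction, which asks whether stimulation acts differently in the drug arms, also called no member (0.0303% of genes were called). By edgeR 2 of 8 members had an unadjusted p under 0.05 there, as did 5.18% of all genes, Cxcl2 at 0.71 ± 0.26 (log2 ± SE; adjusted p = 0.858) and Ccl3 at 0.60 ± 0.29 (adjusted p = 0.964), and DESeq2 and limma-voom called none. The rise of Cxcl2 with stimulation in cisplatin mice is thus not shown to differ from its value in PBS mice.

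**Figure D5:**
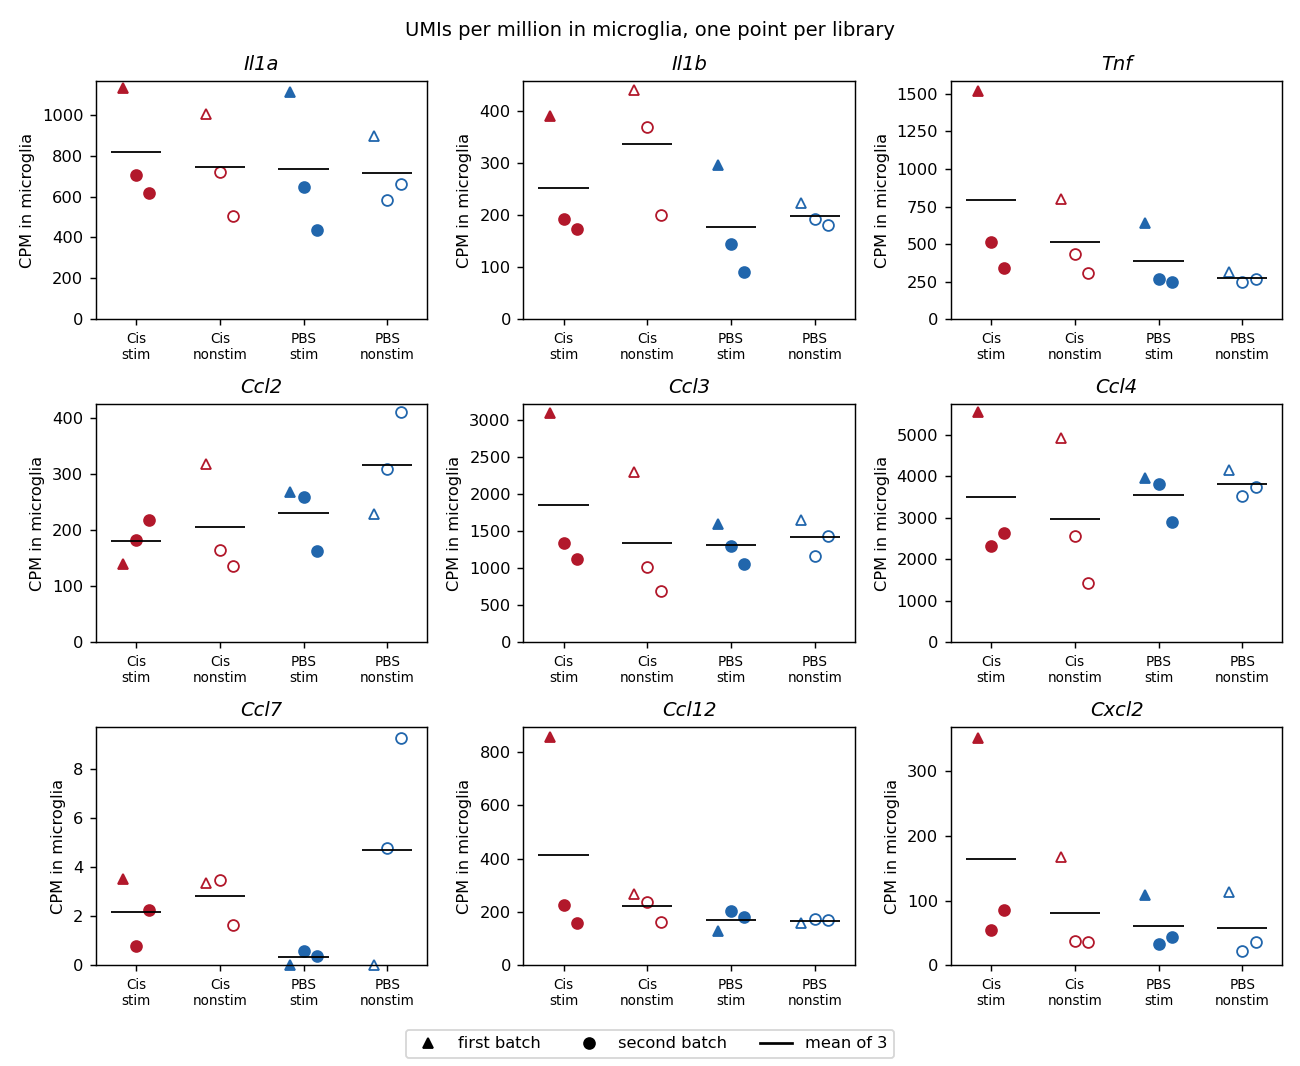
Microglial level of each gene (CPM, axis from 0) in the 3 libraries of each group, with the group mean as a line. Triangles are first-batch and circles second-batch libraries; filled symbols are stimulated. For Il1a, Ccl3, Ccl4 and Cxcl2 the 4 triangles are above all circles, and Cisplatin stim replicate 1 is the highest library for Il1a, Tnf, Ccl3, Ccl4, Ccl12 and Cxcl2.

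In cluster 15 no member was called in any of the 6 comparisons, and none among all immune cells as 1 type, where 0 or 0.0418% of 2395 genes were called and no member had an unadjusted edgeR p under 0.05. In cluster 15 the share of 2292 genes called was 0.218% for Cisplatin nonstim against PBS nonstim, 0.0873% for Cisplatin stim against PBS stim and 0.0% for the stimulation comparisons and the interaction. An unadjusted edgeR p under 0.05 was found there for 1 member and 7.46% of genes in Cisplatin nonstim against PBS nonstim, 5 members and 7.9% of genes in Cisplatin stim against PBS stim, 2 members and 4.84% of genes in Cisplatin stim against Cisplatin nonstim, 0 members and 2.84% of genes in PBS stim against PBS nonstim, and 1 member and 4.28% of genes in the interaction. For cisplatin against PBS averaged over stimulation 0.262% of genes were called there, and 5 of 8 tested members had an unadjusted edgeR p under 0.05, all lower with cisplatin, as did 11.2% of genes in either direction. They were Cxcl2 (-2.49 ± 0.83), Ccl4 (-2.20 ± 0.71), Il1b (-1.14 ± 0.43), Tnf (-0.89 ± 0.27) and Ccl2 (-0.86 ± 0.27; log2 ± SE), with edgeR adjusted p from 0.273 to 0.358. This fit was added after seeing the data and uses 9 libraries with 14 to 38 cells each, in which the 1 library of the first batch is taken up by the batch term. The makeup of the cluster differed between them: cells led by neutrophil markers were 5 of 17 in Cisplatin stim replicate 3, which had 9 led by macrophage markers and no Cxcl2 UMI, 3 of 38 in PBS stim replicate 2 and 0 in the other 7, and the part of this in the result was not tested. Other tools were not run on it. Outside the immune types the members were at or under the level that could be tested, and none was called.

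The receptors and partners of these genes were read from 5 lists in the same fit for cisplatin averaged over stimulation. Of 14 receptors and antagonists only 5 were abundant enough to test. The list's median was 0.01, against 0.00 over all genes. Il1r1, the signalling receptor of interleukin 1, stood at 0 to 1.76 CPM in microglia of all 12 libraries, and Cxcr2, the receptor of Cxcl2, at 0 to 5.48 CPM. Of 21 tested NF-kB regulators and sensors, 1 was called higher and none lower, where 14.8% of all genes were called. It was Nfkbia, the inhibitor that NF-kB itself induces (0.28 ± 0.07, SE; edgeR adjusted p = 0.0121). The list's median was 0.04.

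Among 11 tested further cytokines and chemokines, Il6 and Osm rose and Ccl9 fell, where 14.8% of all genes were called. Il6, the acute-phase cytokine, had 19.4, 31.9 and 20.2 CPM in Cisplatin stim, 12.9, 16.4 and 23.1 in Cisplatin nonstim, 7.63, 9.40 and 8.77 in PBS stim and 4.57, 11.6 and 9.27 in PBS nonstim. All 6 cisplatin libraries were above all 6 PBS libraries, as for 1.88% of 10497 genes, and the log2 fold change was 1.19 ± 0.18 (SE; edgeR adjusted p = 0.000149). Few Il6 UMIs set these levels in the first batch. Microglia of Cisplatin stim, PBS stim and PBS nonstim replicate 1 held 567284, 786188 and 1530084 UMIs of all genes. Refits such as those of the 9 members are not given for the genes of the lists. Osm, a cytokine of the Il6 family, rose by 0.67 ± 0.16 and Ccl9, a CC chemokine, fell by 0.50 ± 0.09 (log2 ± SE; edgeR adjusted p = 0.00847 and 0.000773). The list's median was -0.11. Between Cisplatin nonstim and PBS nonstim, Il6 rose (0.91 ± 0.24) and Ccl9 fell (-0.62 ± 0.12; log2 ± SE; edgeR adjusted p = 0.0336 and 0.00613). Between Cisplatin stim and PBS stim, Il6 (1.46 ± 0.28) and Osm (0.98 ± 0.25) rose (log2 ± SE; edgeR adjusted p = 0.00261 and 0.0231). No gene of the 5 lists was called between PBS stim and PBS nonstim or in the interaction.

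Of 12 regulators that decay cytokine mRNA or are induced by glucocorticoids, 7 rose and none fell, with a list median of 0.25, where 8.2% of all genes were called higher. The genes that rose are known to be induced by glucocorticoids or cytokines, while none of the 4 mRNA decay factors passed: Zfp36 stood at -0.03 ± 0.08, Zfp36l1 at -0.10 ± 0.08, Zfp36l2 at 0.03 ± 0.08 and Zc3h12a at 0.22 ± 0.10 (log2 ± SE; edgeR adjusted p = 0.872, 0.381, 0.857 and 0.15). Fkbp5, a chaperone partner of the glucocorticoid receptor and one of its standard targets, rose by 1.10 ± 0.11 on the log2 scale (SE; edgeR adjusted p = 6.03e-07). Its level was 123, 294 and 259.9 CPM in Cisplatin stim, 44.1, 177 and 177.5 in Cisplatin nonstim, 43.2, 111 and 119 in PBS stim and 47.7, 86.0 and 73.3 in PBS nonstim. Fkbp5 also rose in Cisplatin stim against Cisplatin nonstim (0.81 ± 0.15, SE; edgeR adjusted p = 0.0189). Tsc22d3, a glucocorticoid-induced leucine zipper protein, rose by 0.37 ± 0.08 and Socs3, an inhibitor of cytokine signalling, by 0.35 ± 0.08 (log2 ± SE; edgeR adjusted p = 0.00523 and 0.00751). Per1, Cebpd and Nfkbia also rose, and Nfkbia is the same gene as on the NF-kB list. Without stimulation, Fkbp5 (0.88 ± 0.15), Tsc22d3 (0.65 ± 0.12) and Socs3 (0.49 ± 0.12) were called between Cisplatin nonstim and PBS nonstim, and with stimulation Fkbp5 alone (1.31 ± 0.16) between Cisplatin stim and PBS stim (log2 ± SE; edgeR adjusted p = 0.0019, 0.00266, 0.0227 and 2.05e-05).

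Of 19 immediate early genes, 3 rose and 5 fell, with a list median of -0.11, where 14.8% of all genes were called. Egr3 fell by 1.16 ± 0.16, Egr2 by 0.56 ± 0.09 and Atf3 by 0.56 ± 0.10, and Ier2 rose by 0.52 ± 0.09 (log2 ± SE; edgeR adjusted p = 3.97e-05, 0.000184, 0.000397 and 0.000454). Jun also fell and Ier3 rose. Egr3, a zinc finger transcription factor, had 86.4, 125 and 179.7 CPM in Cisplatin stim, 205, 116 and 113 in Cisplatin nonstim, 403, 278 and 195 in PBS stim and 325, 340.2 and 369 in PBS nonstim. Between Cisplatin nonstim and PBS nonstim, Egr3 (-1.31 ± 0.21), Egr2 (-0.67 ± 0.12) and Ier2 (0.51 ± 0.12) were called. Between Cisplatin stim and PBS stim 1 rose and 6 fell, where 5.24% of all genes were called, among them Atf3 (-0.81 ± 0.14), Egr3 (-1.01 ± 0.23), Klf2 (-0.61 ± 0.16), Fos (-0.44 ± 0.11) and Jun (-0.39 ± 0.10), and Ier2 was the one that rose (0.53 ± 0.13; log2 ± SE). Klf2, a zinc finger factor, also fell in Cisplatin stim against Cisplatin nonstim (-0.82 ± 0.16, SE; edgeR adjusted p = 0.0341).

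The genes whose microglial level followed the sum of the 9 most closely over the 12 libraries were Bcl2a1b (r = 0.955), Nlrp3 (0.926), Ctsl (0.908), mt-Nd5 (0.907), Cd83 (0.904), Cd27 (0.903), Gadd45b (0.901) and Csf1 (0.900), out of 5866 genes of at least 20 CPM. The points share the batch difference, which mt-Nd5, a mitochondrially encoded transcript, also follows. Within the 8 libraries of the second batch the closest were Nop10 (0.949), Csf1 (0.944) and Pgp (0.943), so Csf1 stood in both sets of 8. Over the 21 clusters the closest were C3ar1 (0.977), Nfam1 (0.976), Ptprc (0.971), Cd14 (0.968), Ikzf1 (0.967), Plek (0.963), Gpr183 (0.962) and Rac2 (0.961). These are Pearson correlations of log2(CPM + 1) and serve as descriptions. Members and genes named Gm with digits or ending in Rik were left out of each ranking, though the 5866 was counted before that step. The members were summed as CPM before the log, so in microglia Ccl4 and Ccl3 (medians of 3640 and 1314 CPM) weigh most.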

How the data were processed

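Single-cell libraries (10x Genomics 3' v3.1) were made from dissociated hippocampi, per the labels' protocols. The submitters' processing notes list Cell Ranger 5.0.0, Scanpy and mm10, with no role given. The authors deposited raw UMI counts for 19834 cells and 32285 genes, with 12 cell types, 21 clusters and a doublet score per cell. The doublet score deposited by the authors reaches 0.097, and no further call was made.

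For each library, UMIs of all cells of a type or cluster were added up (at least 10 cells). The quasi-likelihood test of edgeR 4.0.16 (R 4.3.3) was run with TMM normalization and filterByExpr, the 4 groups and the batch as terms, over all 12 libraries; p-values were adjusted by Benjamini-Hochberg over all genes tested in a comparison, and 0.05 was the threshold. Averaging over stimulation treats the 12 libraries as independent. Standard errors were computed from the fold change and its F statistic. DESeq2 1.42.0 and limma-voom (limma 3.58.1) were alternatives, as were other normalization, filters, batch terms, covariates, cells and each library left out. Scripts were tested on simulated data.

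Deviations from group means correlated at 0.107 to 0.376 between same-numbered libraries in microglia. In the second batch alone the correlations were -0.04 to 0.038, so this likeness comes with the batch. The main fit held the batch as a term and did not pair libraries, and the replicate number was a block in an alternative only. Cells were thinned to 2000 UMIs for shares, with exact 95% intervals; a count of 0 was read as allowing up to 3 counts. The members, the gene lists and the markers were chosen with earlier results of these data known. All members were named, then up to 6 called genes per list and comparison by p, and the 8 genes most correlated with the members. Genes outside this rule (Il1r1, Cxcr2, the mRNA decay factors and the second-batch likeness genes) were chosen after their values were seen. Some results of the receptor list are not reported here.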

Additional observations from a re-analysis of the deposited data

How the results depend on the processing

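Calls of Il1b, Tnf and Cxcl2 for cisplatin averaged over stimulation held with RLE size factors, limma-voom, the replicate block, cluster 0 alone and without cells over 10% mitochondrial UMIs; leaving out 1 library gave 3 to 5 called members. With the replicate block, the numbers of members called were unchanged but for Il1b in Cisplatin nonstim against PBS nonstim (1 called, log2 0.66). In that comparison limma-voom called 1 (Tnf), no filter 5, the second batch alone 3, the immediate early gene covariate 1 (Tnf), no first-batch cisplatin libraries 5, and leaving out 1 library 0 to 2. For Cisplatin stim against Cisplatin nonstim the count was 5 with no filter, 0 with no batch term, in the second batch alone, with the immediate early gene covariate, in cluster 5 alone and without the first-batch cisplatin libraries, and 0 to 1 leaving out 1 library. For PBS stim against PBS nonstim it was 2 with no filter (Ccl2, Ccl7), 1 in the second batch alone (Ccl7) and 0 to 1 leaving out 1 library. For Cisplatin stim against PBS stim it was 1 by DESeq2, 4 with no filter, 0 with no batch term, 4 with the ribosomal RNA-like share, 0 with the immediate early gene covariate, 1 in cluster 5, 1 without the first-batch cisplatin libraries and 1 to 3 leaving out 1 library. The interaction called 1 with no filter (Ccl3) and 0 leaving out 1 library. Cisplatin averaged over stimulation gave 6 with no filter, 0 with no batch term, 5 in the second batch alone, 0 with the immediate early gene covariate, 1 in cluster 5 and 5 without the first-batch cisplatin libraries. The covariate on immediate early genes, cluster 5 alone, and the fit without the first-batch cisplatin libraries were added after seeing the data. For none of these changes was the cause tested. The share of all genes called can differ between refits and is not given here. These counts therefore bear on the stability of the calls alone.

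Signs turned in 21 of 595 refits of 24 member values. With the ribosomal RNA-like share, Ccl2 and Ccl4 were 0.017 and 0.17 in Cisplatin nonstim against PBS nonstim, and 0.18 and 0.28 averaged over stimulation. With the immediate early gene covariate, Tnf was -0.49 in Cisplatin stim against Cisplatin nonstim and -0.028 in Cisplatin stim against PBS stim, Ccl12 was -0.78 there and -0.28 averaged, and Ccl3 was -0.17 averaged. In cluster 5 alone Il1b was 0.33 in Cisplatin stim against Cisplatin nonstim, and Ccl12 -0.31 in Cisplatin stim against PBS stim. In the second batch alone Tnf was -0.013 in PBS stim against PBS nonstim, Ccl12 -0.026 in Cisplatin stim against PBS stim and Ccl3 -0.30 averaged. Averaged Ccl3 was -0.0030 in cluster 0 alone, -0.30 without the first-batch cisplatin libraries and -0.10 to 0.16 leaving out 1 library; Tnf in PBS stim against PBS nonstim was -0.052 to 0.49 leaving out 1 library. Thinning to 1000 UMIs gave shares of 34.2% for Il1a, 9.59% for Il1b, 19.3% for Tnf, 11.8% for Ccl2, 34.2% for Ccl3, 49.1% for Ccl4, 12.7% for Ccl12 and 1.95% for Cxcl2. A minimum of 20 cells per library changed no call in other cell types (0) or within the microglial clusters (8). Depth limits Ccl7 in microglia, too rare to be tested over all 12 libraries with the filter, and Cxcl2 in cluster 5.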
